A study of Homo sapiens with 36 samples.

Results

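The solute carriers (SLC) are the largest group of human membrane transporters, and the messages described here are those of the SLC genes that HEK293T cells expressed at a usable level. Members were the protein-coding genes whose symbol is SLC followed by a family number and a letter, with more than 1 exon and a mean of at least 5 CPM (counts per 1e6 counts) over the 9 input libraries. Of 376 protein-coding genes with such a name, 203 met the floor, out of 60675 annotated genes. They were sorted by the known location of the protein into 80 plasma membrane carriers, 38 mitochondrial carriers of the SLC25 family, 52 carriers of endomembranes and other organelles, and 33 that were left unassigned. The rule used symbol, exon number and mean input level, and none of the immunoprecipitation or editing values. Just above the floor stood SLC38A6 and SLC5A10, each with 5.06 CPM, and just below it SLC37A1 with 4.98 CPM and SLC51A with 4.94 CPM. Such symbols also belong to genes that are no carriers, all left unassigned here: SLC2A4RG, a regulator of a glucose transporter gene, SLC9A3R1 and SLC9A3R2, scaffold proteins, SLC4A1AP, an adaptor protein, and SLC7A6OS, which lies opposite SLC7A6.

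SLC proteins move nutrients, ions, vitamins and metabolites across membranes by facilitated diffusion, exchange or co-transport. Those at the cell surface control uptake of amino acids, glucose, lactate, phosphate and metals. Most SLC25 carriers sit in the inner mitochondrial membrane and exchange ADP for ATP, phosphate, dicarboxylates and cofactors with the matrix. SLC25A17 was placed with the organelle members here, and the placing of SLC25A46 is less sure. YTHDF1, YTHDF2 and YTHDF3 are cytoplasmic proteins that bind mRNA carrying N6-methyladenosine, a mark common in the last exon and around the stop codon, and they are known for effects on mRNA decay and translation.

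HEK293T is a human embryonic kidney line carrying the SV40 large T antigen. Each of the 3 derived lines carried 1 of the YTHDF proteins, YTHDF1, YTHDF2 or YTHDF3, as a fusion with ADAR, an enzyme that converts adenosine to inosine in nearby RNA, and all libraries came from cells given doxycycline at 1 µg/mL for 24 h. The design holds YTHDF1 RIP, YTHDF2 RIP and YTHDF3 RIP (RNA immunoprecipitation with an antibody against the endogenous protein) and input lysate RNA from each of the YTHDF1-ADAR, YTHDF2-ADAR and YTHDF3-ADAR lines, 12 groups of 3 libraries and 36 in all. Whether a line is 1 clone, whether the antibodies also bind the fusion proteins, and whether replicates are separate cultures is not given, so p-values measure the spread between libraries that may be technical replicates. An immunoprecipitation with a control antibody was not analysed here.

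Total counts assigned to genes were 12.5 M to 37.5 M a library (M, 1e6 counts). Mean input CPM of each fused gene was highest in its own line: YTHDF1 reached 634 in YTHDF1-ADAR cells, against 87.9 and 94.0 in the YTHDF2-ADAR and YTHDF3-ADAR lines, YTHDF2 reached 321 in its line, against 154 and 197, and YTHDF3 reached 123, against 52.8 and 54.8. The neurofilament and kidney developmental genes that HEK293 cells express were present in input (NEFM at 260 to 1640 CPM, PAX2 at 3.80 to 7.89 CPM), and the liver, blood and epithelial markers ALB, APOA1, PTPRC, HBB and KRT5 were at 0 to 0.301 CPM in input. Of the fibroblast markers COL1A2 was at 0 in every input and COL1A1 at 13.8 to 30.2 CPM, and the part of this in the results was not tested. YTHDF1 RIP from cells with either other fusion, YTHDF2-ADAR or YTHDF3-ADAR, made up 6 libraries that stood apart from the other 30. They held 12.5 M to 16.3 M counts, 54.1 to 74.2% of them on protein-coding genes, 0.697 to 4.35% on small nucleolar RNAs and 0.581 to 0.771% on the SLC messages, against 15.9 M to 37.5 M, 71.5 to 92.4%, 0.0360 to 0.564% and 1.01 to 1.53% in the other 30. Results that rest on those 6 libraries are named as such.

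The most abundant SLC messages per length were the ADP/ATP translocases SLC25A5 (350 CPM per kb of exon in input) and SLC25A6 (271), followed by the glutamine carrier SLC1A5 (138), the large neutral amino acid carrier SLC7A5 (100), the lactate carrier SLC16A1 (83.6) and the arginine carrier SLC7A1 (52.1), against a median of 6.11 over the 203 members. The length used sums all annotated exons of a gene and can exceed the length of its messages, so levels per kb are approximate. Median input levels were 6.49 CPM per kb for plasma membrane and 7.27 for SLC25 members. Summed exon length differed more: the median was 6.38 kb for plasma membrane members, 4.63 kb for SLC25 members, 5.47 kb for endomembrane members and 5.40 kb for the 11504 multi-exon protein-coding genes at the same floor, called peers from here on.

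In YTHDF3 RIP, plasma membrane and SLC25 messages parted. In all 3 lines 16 of 80 plasma membrane members were higher in YTHDF3 RIP than in input and 3 were lower, while 1 of 38 SLC25 members was higher and 13 were lower. Of the peers 19.5% were higher and 23.4% lower in all 3 lines. The plasma membrane share higher, 20%, was thus near that of the peers, and the share lower, 3.75%, was below it. For SLC25 members the share higher, 2.63%, was below the peers and the share lower, 34.2%, above them. The higher plasma membrane messages included the arginine carriers SLC7A1 and SLC7A2, the glutamine carriers SLC38A1 and SLC38A2, the large neutral amino acid carriers SLC7A5 and SLC7A6, the Na-K-Cl cotransporter SLC12A2, the ascorbate carrier SLC23A2, the bicarbonate carriers SLC4A4 and SLC4A7, the sulfate carrier SLC26A2, the myo-inositol carrier SLC5A3, the folate carrier SLC46A1, the magnesium carrier SLC41A1 and the calcium exchanger SLC24A1. The lower SLC25 messages included the 3 ADP/ATP translocases among the members (SLC25A4, SLC25A5 and SLC25A6), the phosphate carrier SLC25A3, the citrate carrier SLC25A1, the dicarboxylate carrier SLC25A10, the oxoglutarate carrier SLC25A11, the carnitine carrier SLC25A20, the glutathione carrier SLC25A39 and the pyrimidine nucleotide carrier SLC25A33, with SLC25A21, SLC25A35 and SLC25A46. Of these SLC25A10, SLC25A21 and SLC25A35 share 46.6%, 37.2% and 28.7% of their exon bases with other genes. Among the higher plasma membrane messages SLC46A1 and SLC7A6 share 60.6% and 55.6%. The counts of these genes are uncertain. Calls are edgeR quasi-likelihood tests with Benjamini-Hochberg adjusted p under 0.05 over 31849 genes, fitted on all 36 libraries, with fold changes on the log2 scale after TMM scaling.

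By line, 22.5% of plasma membrane members were higher and 8.75% lower with YTHDF3 in YTHDF1-ADAR cells (median log2 fold change 0.07), 35% and 7.5% in YTHDF2-ADAR cells (0.22) and 32.5% and 5.0% in YTHDF3-ADAR cells (0.30). Of SLC25 members, 2.63%, 5.26% and 2.63% were higher and 47.4%, 47.4% and 42.1% lower in the same 3 lines (medians −0.43, −0.36 and −0.37). Over all 203 members the counts were 30 higher and 46 lower in YTHDF1-ADAR cells, where 11.5% of all genes tested were higher and 20.1% lower, 48 and 35 in YTHDF2-ADAR cells (15.2% and 16.9% of all genes), and 45 and 30 in YTHDF3-ADAR cells (13.5% and 16.1%). As shares the members gave 14.8%, 23.6% and 22.2% higher and 22.7%, 17.2% and 14.8% lower, and the peers 23.4%, 26.1% and 26.3% higher and 31.5%, 28.8% and 27.1% lower, so each of these shares lay below that of the peers. Among peers 19.5% were higher and 23.4% lower in all 3 lines, compared with 20% and 3.75% of plasma membrane members and 2.63% and 34.2% of SLC25 members. Without the 6 libraries that stood apart, YTHDF3 RIP in YTHDF1-ADAR cells gave 50 members higher and 29 lower. Without YTHDF1-ADAR YTHDF3 RIP replicate 2 it gave 55 higher and 23 lower, and the lower count was 21 without YTHDF1-ADAR input replicate 3 and 23 without YTHDF3 RIP replicate 3. In YTHDF2-ADAR cells the higher count was 26 and 29 without input replicate 1 and 3, and in YTHDF3-ADAR cells it was 24 to 29 without any 1 of the inputs or YTHDF3 RIP replicate 1 or 2.

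Scaling by total counts moved the median of all genes by 0.24 to 0.28 with YTHDF3 and gave 59 higher and 22 lower, 84 and 18, and 76 and 21 members in the 3 lines, with 30 plasma membrane messages higher in all lines. The direction of the split held under it: 33, 43 and 42 plasma membrane members were higher and 4, 1 and 3 lower, and 3, 9 and 4 SLC25 members were higher and 12, 11 and 13 lower. The call of SLC26A2 in YTHDF1-ADAR cells was lost without input replicate 1 or YTHDF3 RIP replicate 3. Leaving out YTHDF1-ADAR YTHDF3 RIP replicate 2 gave 25 plasma membrane members higher in all lines, and leaving out YTHDF3-ADAR input replicate 2 or YTHDF3-ADAR YTHDF3 RIP replicate 1 gave 10. The 13 lower SLC25 members became 11 to 16 when single libraries were left out.

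A measure that a scaling factor per library does not move is the difference, within a library, between the median log2 level of plasma membrane members and that of SLC25 members, each message taken relative to its mean in the line's input. In YTHDF3 RIP it was 0.57 ± 0.12, 0.60 ± 0.08 and 0.63 ± 0.19 in the YTHDF1-ADAR, YTHDF2-ADAR and YTHDF3-ADAR lines, against −0.01 ± 0.03, −0.00 ± 0.04 and 0.01 ± 0.02 in input (SD, n = 3 each). In YTHDF2 RIP it was 0.31 ± 0.19, 0.21 ± 0.12 and 0.28 ± 0.07, and in YTHDF1 RIP 0.02 ± 0.10, 0.08 ± 0.03 and 0.19 ± 0.05. In each of the 9 YTHDF3 RIP libraries the plasma membrane median lay above 0 and the SLC25 median below 0. Because the locations were assigned with results of these data known, no test is attached to the difference.

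**Figure D1:**
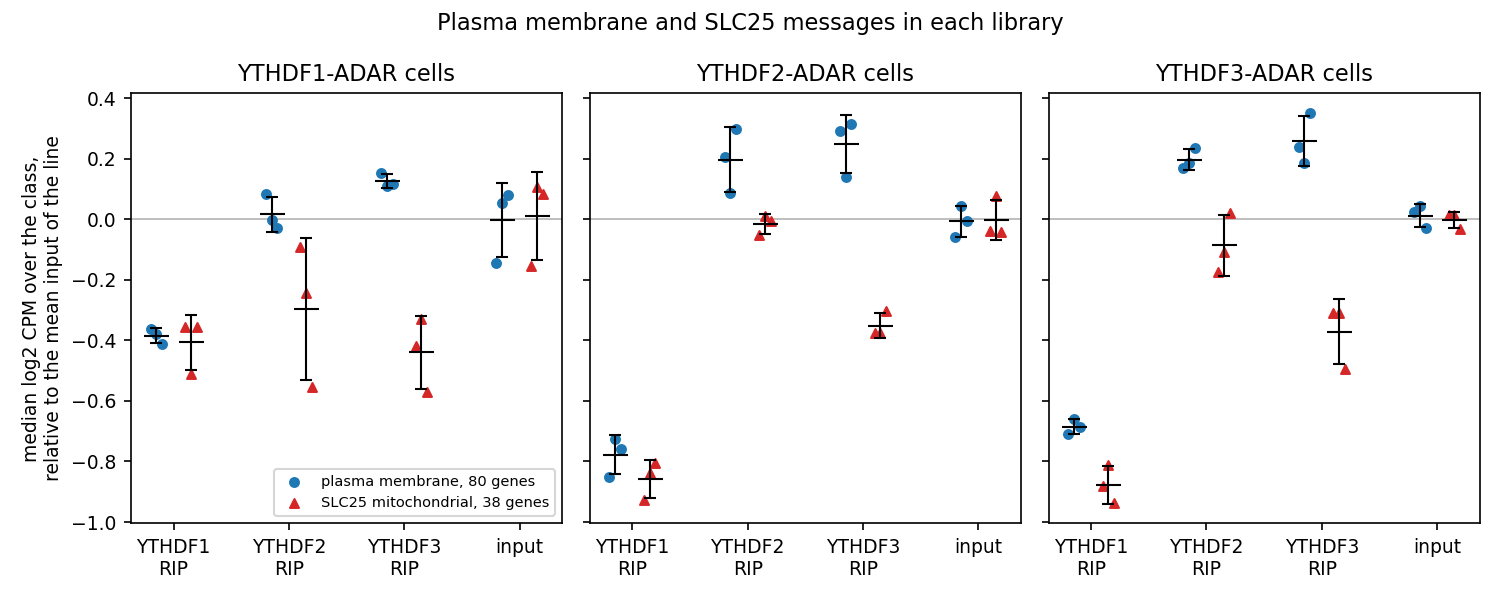
Each point is the median, over the 80 plasma membrane or the 38 SLC25 members, of log2 CPM in 1 library relative to the mean of that line's 3 inputs; the panels are the 3 lines, the columns the RIP arms and input, and the bars the mean ± SD of 3 libraries. In YTHDF3 RIP the plasma membrane points lie above 0 and the SLC25 points below 0 in every line, and in YTHDF1 RIP both lie well below 0.

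Summed exon length moved with this result, and its part in it was not tested. Over the 203 members the Spearman correlation of exon length with the YTHDF3 fold change was 0.43, 0.45 and 0.45 in the 3 lines, and over the peers 0.55, 0.58 and 0.59. Within classes it was 0.44, 0.45 and 0.42 for plasma membrane members and 0.44, 0.46 and 0.46 for SLC25 members. With YTHDF2 the members gave 0.27, 0.22 and 0.26. These are correlations across genes of the same libraries, given as a description.

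**Figure D2:**
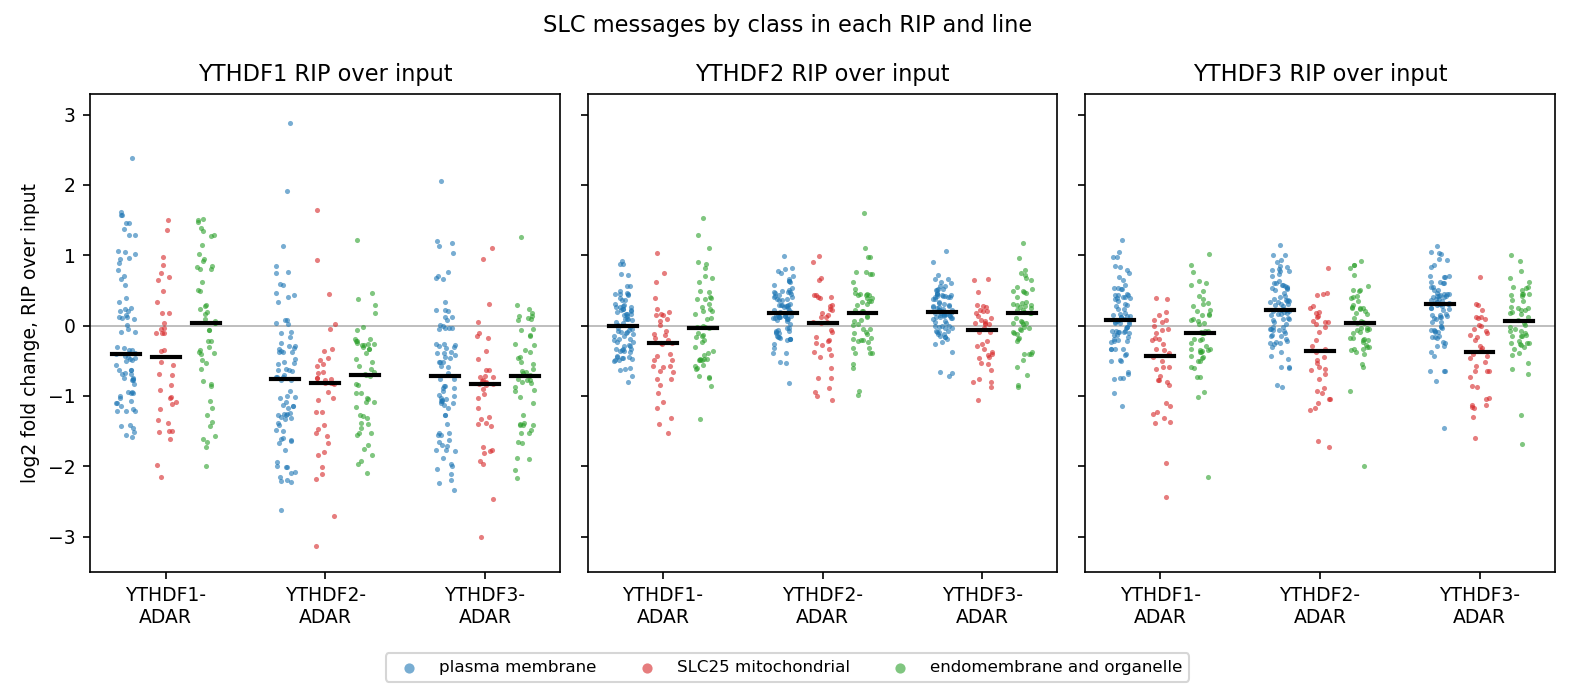
Each point is 1 plasma membrane, SLC25 or endomembrane member, plotted by its log2 fold change of RIP over input in each line, with 1 panel for each antibody and black bars at the class medians. With YTHDF3 the SLC25 median is −0.43, −0.36 and −0.37 in the 3 lines and the plasma membrane median 0.07, 0.22 and 0.30; with YTHDF1 both classes lie below 0 in the YTHDF2-ADAR and YTHDF3-ADAR lines.

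SLC25A5 (ENSG00000005022, chrX:119468422-119471396, GRCh38), the translocase expressed most per length, was among the SLC messages lowest in YTHDF3 RIP. In YTHDF1-ADAR cells it had 94.3, 86.2 and 64.5 CPM in YTHDF3 RIP, against 337, 464 and 521 CPM in input. In YTHDF2-ADAR cells it had 198, 164 and 185 CPM in YTHDF3 RIP, against 615, 650 and 555 CPM in input. The groups did not overlap, and the log2 fold changes were −2.43 ± 0.24, −1.73 ± 0.23 and −1.59 ± 0.23 (± SE) in the 3 lines, with edgeR quasi-likelihood adjusted p of 5.24e-10 and 3.36e-07 in YTHDF1-ADAR and YTHDF2-ADAR cells. It was lower with YTHDF2 too (−1.52, −0.74 and −0.87), where the call in YTHDF2-ADAR cells was lost without input replicate 2. SLC25A6 fell by 1.96, 1.64 and 1.30 on the log2 scale with YTHDF3. Both have many processed pseudogenes (9 named for SLC25A5 and 6 for SLC25A6), and multi-mapping reads were counted at each copy, so their levels are uncertain.

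SLC25A4 (ENSG00000151729, chr4:185143266-185150382), the translocase isoform of heart and muscle, has no named pseudogene in the annotation and no exon shared with another gene, and behaved differently with the 2 antibodies. In YTHDF3 RIP it had 12.6, 10.8 and 8.66 CPM in YTHDF1-ADAR cells, 16.1, 15.2 and 14.5 in YTHDF2-ADAR cells and 17.4, 12.5 and 13.2 in YTHDF3-ADAR cells. Input held 22.7, 25.5 and 28.6, then 30.6, 30.8 and 32.9, then 31.8, 32.2 and 31.9 CPM in the same lines. All YTHDF3 RIP values lay below all inputs of their line, with log2 fold changes of −1.26, −1.04 and −1.15 (SE 0.19 each). With YTHDF2 it was 0.39, 0.68 and 0.30, called higher only in YTHDF2-ADAR cells (edgeR adjusted p = 0.00659, lost without input replicate 1 or 2). The phosphate carrier SLC25A3, with 3 named pseudogenes, gave −1.15, −0.88 and −0.85 with YTHDF3, all called, and 0.00, 0.28 and 0.21 with YTHDF2, none called.

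Among surface carriers, the arginine carrier SLC7A1 (ENSG00000139514, chr13:29509414-29595688) was higher with YTHDF2 and YTHDF3 in every line. In YTHDF1-ADAR cells it had 586, 572 and 693 CPM in YTHDF3 RIP and 639, 611 and 783 CPM in YTHDF2 RIP, against 309, 367 and 431 CPM in input. All 6 RIP values were above all inputs. The log2 fold changes over the 3 lines were 0.74, 0.78 and 0.93 with YTHDF3 and 0.88, 0.81 and 0.90 with YTHDF2 (SE 0.18 each), and no call was lost when single libraries were left out.

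The glutamine carrier SLC38A2 (ENSG00000134294, chr12:46358188-46372773) was higher with YTHDF3 but passed no test with YTHDF2. It had 407, 345 and 590 CPM in YTHDF3 RIP of YTHDF1-ADAR cells, against 204, 264 and 305 CPM in input. In YTHDF2-ADAR cells it had 736, 494 and 672 CPM in YTHDF3 RIP, against 294, 337 and 387 CPM in input. RIP and input did not overlap, with log2 fold changes of 0.80, 0.90 and 1.02 (SE 0.20 each) and edgeR adjusted p of 0.0015, 0.000394 and 9.47e-05. With YTHDF2 it gave 0.09, 0.29 and 0.37. Its relative SLC38A1 was higher with YTHDF3 by 0.69, 0.74 and 0.94 on the log2 scale.

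The ascorbate carrier SLC23A2 had the highest mean YTHDF3 fold change of all members. In YTHDF1-ADAR cells it had 121, 119 and 108 CPM in YTHDF3 RIP, against 45.4, 53.7 and 50.1 CPM in input, with no overlap. Its log2 fold changes were 1.22, 1.14 and 1.04 with YTHDF3 and 0.50, 0.54 and 0.38 with YTHDF2, all called, although the YTHDF2 call was lost in YTHDF2-ADAR cells without input replicate 1 and in YTHDF3-ADAR cells without any input or YTHDF2 RIP replicate 3. Among the highest with YTHDF3 were also SLC24A1 (0.97, 1.00 and 1.14), SLC4A7 (0.83, 1.01 and 1.04) and the Golgi nucleotide sugar carrier SLC35B4 (1.02, 0.91 and 0.92). The lowest mean was that of SLC50A1, a sugar carrier of the Golgi (−2.15, −2.0 and −1.69), and next to SLC25A5 stood SLC9B1 (−2.20, −1.52 and −1.80), a sodium-proton exchanger relative with 4 named pseudogenes.

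**Figure D3:**
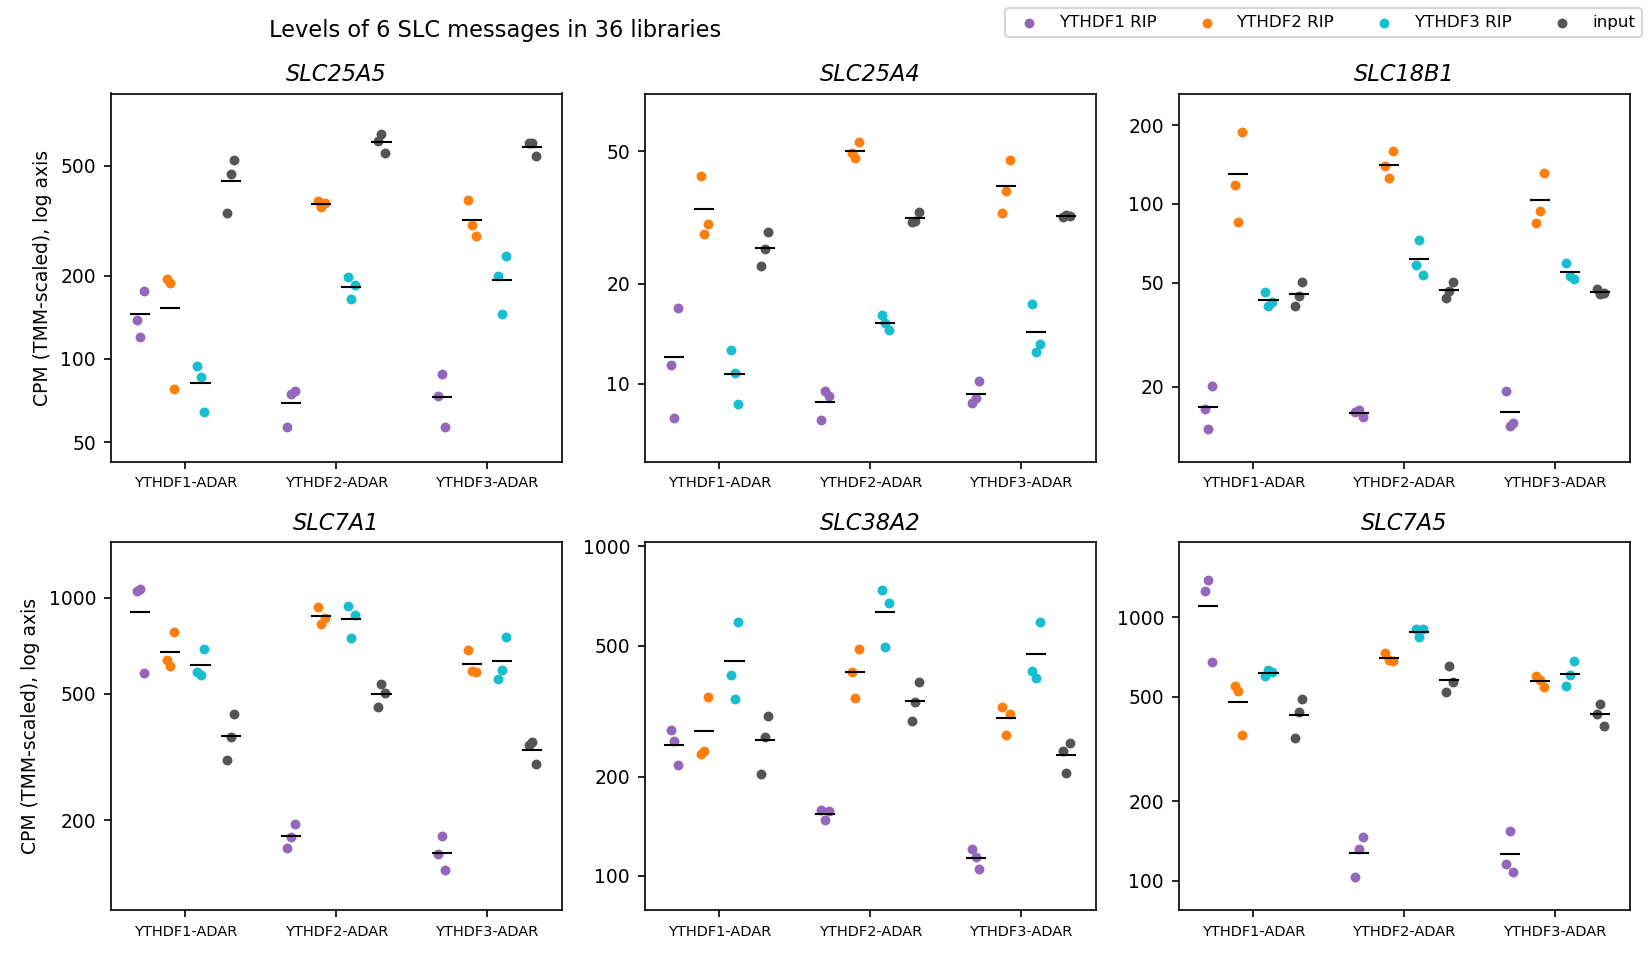
TMM-scaled CPM, on a log axis, of SLC25A5, SLC25A4, SLC18B1, SLC7A1, SLC38A2 and SLC7A5 in all 36 libraries; within each line the columns run YTHDF1 RIP, YTHDF2 RIP, YTHDF3 RIP and input, and bars are means of 3 libraries. SLC25A5 in YTHDF3 RIP lies below input in every line, SLC18B1 stands out in YTHDF2 RIP, and SLC7A1 and SLC7A5 in YTHDF1 RIP lie above input in YTHDF1-ADAR cells and below it in the other lines.

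Among the 13 families with at least 5 members, grouped by symbol, SLC7 held the largest share of members higher with YTHDF3. Its 8 members are amino acid carriers and SLC7A6OS, which is no carrier. Of the 8, 5 were higher in all 3 lines (SLC7A1, SLC7A2, SLC7A5, SLC7A6 and SLC7A6OS), with medians of 0.53, 0.58 and 0.53, and none was lower in any line. SLC7A6 and SLC7A6OS share 55.6% and 64.5% of their exon bases on opposite strands. Counting ignored strand, so the 2 cannot be told apart and are not separate results among the 5. For SLC7A5 the fold changes were 0.54, 0.60 and 0.51, and the call was lost without YTHDF1-ADAR input replicate 1 or 2, without any of the 6 YTHDF2-ADAR libraries but input replicate 2, and without any of the 6 YTHDF3-ADAR libraries. SLC3A2, the heavy chain that carries SLC7A5 to the surface, gave −0.33, −0.02 and −0.09 with YTHDF3 and no call. Of 11 SLC39 zinc carriers 3 were lower in all lines (SLC39A1, SLC39A4 and SLC39A13), and SLC39A1 shares 69.1% of its exon bases with another gene. Of 22 members of the SLC35 family 3 were higher (SLC35B4, SLC35D1 and SLC35E2B) and 2 lower (SLC35A2 and SLC35B1). With 19.5% of peers higher and 23.4% lower in all 3 lines, the SLC39 count lower is near the peers and both SLC35 counts are below them, so neither is a result about its family.

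In YTHDF2 RIP fewer SLC messages were called. In all 3 lines 27 members were higher and 13 lower, made up of 11 and 1 plasma membrane, 3 and 7 SLC25, 9 and 3 endomembrane and 4 and 2 unassigned members, while 13.8% of peers were higher and 13.3% lower. The shares higher, 13.3% of members and 13.8% of plasma membrane members, were near the peers. The shares lower, 6.4% and 1.25%, were below them. Of SLC25 members 7.89% were higher and 18.4% lower. Plasma membrane messages higher in all lines were SLC7A1, SLC12A2, SLC12A7, SLC20A1, SLC22A5, SLC23A2, SLC46A1, SLC5A3, SLC5A10, SLC6A6 and SLC8A1, which carry arginine, chloride, phosphate, carnitine, ascorbate, folate, myo-inositol, taurine and calcium among others. SLC25 messages higher were SLC25A25, SLC25A26 (the S-adenosylmethionine carrier) and SLC25A30, and those lower were SLC25A5, SLC25A16, SLC25A21, SLC25A32, SLC25A35, SLC25A40 and SLC25A46. Of those lower, SLC25A32, SLC25A21 and SLC25A35 share 80.8%, 37.2% and 28.7% of their exon bases with other genes. Of the plasma membrane messages SLC46A1 and SLC5A10 share 60.6% and 33.6%. The counts of these genes, and of SLC25A5 with its pseudogenes, are uncertain. By line, 34 members were higher and 40 lower in YTHDF1-ADAR cells (8.66% and 15.5% of all genes tested), 44 and 16 in YTHDF2-ADAR cells (10.2% and 10.1%) and 38 and 18 in YTHDF3-ADAR cells (8.98% and 9.93%). As shares of the members these were 16.7%, 21.7% and 18.7% higher and 19.7%, 7.88% and 8.87% lower, and of the peers 18.5%, 21.3% and 18.7% higher and 27.2%, 16.6% and 16.5% lower. Scaling by total counts gave 55 higher and 18 lower, 73 and 11, and 70 and 7 members. The count lower in YTHDF1-ADAR cells was 14 without input replicate 3 and 20 and 21 without YTHDF2 RIP replicate 2 and 3. The YTHDF2-ADAR counts were 25 and 23 higher without input replicate 1 and 3 and 10 lower without YTHDF2 RIP replicate 1, and the YTHDF3-ADAR counts were 18 to 20 higher without any input or YTHDF2 RIP replicate 3 and 11 lower without the last. The 11 plasma membrane members came to 5 to 7 without YTHDF1-ADAR input replicate 1 or 3, YTHDF1-ADAR YTHDF2 RIP replicate 1 or 2, any YTHDF2-ADAR or YTHDF3-ADAR input, or YTHDF3-ADAR YTHDF2 RIP replicate 3, and to 21 under total-count scaling. The 7 SLC25 members came to 3 without YTHDF3-ADAR YTHDF2 RIP replicate 3, to 4 without YTHDF2-ADAR input replicate 2, YTHDF2-ADAR YTHDF2 RIP replicate 1 or YTHDF3-ADAR YTHDF2 RIP replicate 2, and to 3 under total-count scaling.

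SLC18B1 (ENSG00000146409, chr6:132769370-132813339), a vesicular polyamine carrier, had the highest mean YTHDF2 fold change. In YTHDF1-ADAR cells it had 118, 85.4 and 189 CPM in YTHDF2 RIP, against 40.8, 44.3 and 50.2 CPM in input. In YTHDF2-ADAR cells it had 140, 125 and 159 CPM in YTHDF2 RIP, against 43.7, 46.3 and 50.3 CPM in input. Every YTHDF2 RIP value was above every input of its line, with log2 fold changes of 1.54, 1.60 and 1.17 (SE 0.19 each) and an edgeR adjusted p of 1.39e-07 in YTHDF1-ADAR cells. YTHDF1 RIP gave the opposite, with 16.4, 13.8 and 20.1 CPM in YTHDF1-ADAR cells and log2 fold changes of −1.43, −1.56 and −1.53 over the lines. With YTHDF3 it was −0.07, 0.40 and 0.25, none called. The comparisons with different antibodies share the inputs of a line.

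SLC35B4 followed, with 1.29, 1.1 and 0.96 on the log2 scale with YTHDF2. In YTHDF1-ADAR cells it had 315, 272 and 248 CPM in YTHDF2 RIP and 248, 222 and 220 CPM in YTHDF3 RIP, against 89.9, 134 and 117 CPM in input. The phosphate carrier SLC20A1, also the receptor of gibbon ape leukemia virus, was higher with YTHDF2 by 0.87, 0.77 and 0.61, the last lost without YTHDF3-ADAR input replicate 1 or 2 or YTHDF2 RIP replicate 3. SLC2A1, the main glucose carrier of the surface, gave −0.20, 0.12 and 0.06 with YTHDF2 and 0.08, 0.34 and 0.10 with YTHDF3, none of them called. SLC16A1 and the folate carrier SLC19A1 passed no test with YTHDF3 either.

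YTHDF2 and YTHDF3 RIP were also compared directly, averaged over the 3 lines, with no input in the contrast. Of the members 72 were higher in YTHDF2 RIP and 49 lower, where 19.7% of all genes tested were higher and 17% lower. Of SLC25 members 20 were higher in YTHDF2 RIP and 6 lower (52.6% and 15.8%), and of plasma membrane members 15 were higher and 23 lower (18.8% and 28.8%), with 35.1% of peers higher and 27.5% lower. SLC25A4 led with 1.61 ± 0.11 (edgeR adjusted p = 3.87e-14), then SLC18B1 with 1.24 ± 0.11 and SLC66A2 with 1.22 ± 0.11. Among the lowest was SLC10A7 (−1.0 ± 0.12). None of these calls was lost when a library was left out.

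YTHDF1 RIP depended on the line. In YTHDF1-ADAR cells 57 members were higher than input and 85 lower (28.1% and 41.9%, where 20.6% and 28.8% of all genes were called). In YTHDF2-ADAR cells 20 were higher and 144 lower (41.8% and 33.4% of all genes), and in YTHDF3-ADAR cells 17 were higher and 138 lower (40.8% and 32.4% of all genes). Medians over the members were −0.22, −0.76 and −0.76, and over the peers 31.3%, 13.6% and 13.2% were higher and 43.9%, 62.7% and 62.3% lower. The members lower in all 3 lines numbered 53, among them 22 plasma membrane and 15 SLC25 messages, 26.1% of members compared with 31.0% of peers. Only SLC22A23 and SLC38A10 were higher in all 3 (0.985% of members, with 3.6% of peers). Of the 203 members 54 were called in opposite directions in different lines, compared with 2707 of 11504 peers and 5778 of 31849 genes tested. That share of the members was near the share of the peers. The counts for YTHDF2-ADAR and YTHDF3-ADAR cells rest on the 6 libraries that stood apart, and total-count scaling changed them to 36 higher and 88 lower and to 32 higher and 104 lower, and the 53 to 32. The higher count in YTHDF2-ADAR cells was 8 to 10 without any input or YTHDF1 RIP replicate 1 or 3, and in YTHDF3-ADAR cells 10 without input replicate 1 or 3 or YTHDF1 RIP replicate 2. The call of SLC38A10 was lost in YTHDF2-ADAR cells without any input or YTHDF1 RIP replicate 3, and in YTHDF3-ADAR cells without input replicate 3 or YTHDF1 RIP replicate 2.

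The difference between lines was tested directly, as the YTHDF1 enrichment in YTHDF1-ADAR cells minus the mean of the other 2 lines. By this test 120 members had a higher and 39 a lower enrichment in YTHDF1-ADAR cells (59.1% and 19.2%), where 26.9% of all genes were higher and 42.4% lower, and 47.8% of peers higher and 20.4% lower. By class 44 plasma membrane members were higher and 19 lower, 26 and 5 SLC25 members, and 32 and 10 endomembrane members, with a median difference of 0.65 on the log2 scale over all members. The 39 became 23 to 25 without any YTHDF1 RIP library or input replicate 3 of YTHDF1-ADAR cells, YTHDF2-ADAR input replicate 1, or YTHDF3-ADAR input replicate 2 or 3. A test of any difference among the 3 lines called 151 members (63.7% of all genes). Depth, the protein-coding share and the small nucleolar RNA share of the 6 libraries moved with this difference, and their part in it cannot be told apart from the line.

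The sulfate carrier SLC26A2 (ENSG00000155850, chr5:149960758-149993455) had the smallest p of this test among the members. In YTHDF1-ADAR cells it had 120, 106 and 93.0 CPM in YTHDF1 RIP, against 40.6, 55.4 and 62.1 CPM in input. In YTHDF2-ADAR cells it had 13.4, 16.6 and 18.4 CPM in YTHDF1 RIP, against 62.5, 67.7 and 76.6 CPM in input. RIP lay above input in YTHDF1-ADAR cells and below it in both other lines, and the difference was 3.04 ± 0.18 (edgeR adjusted p = 1.53e-15). The zinc carrier SLC39A3 differed by 3.28 ± 0.22, SLC7A5 by 3.36 ± 0.24 and SLC35E1 by 2.35 ± 0.17. SLC7A5 (ENSG00000103257, chr16:87830023-87869507) had 1258, 1382 and 675 CPM in YTHDF1 RIP of YTHDF1-ADAR cells, against 348, 437 and 491 CPM in input, and 103, 132 and 147 CPM in YTHDF1 RIP of YTHDF2-ADAR cells, against 519, 651 and 569 CPM in input.

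SLC25A16 went the other way, with a difference of −2.45 ± 0.18. It had 8.02, 7.18 and 7.10 CPM in YTHDF1 RIP of YTHDF1-ADAR cells, against 21.7, 22.5 and 19.6 CPM in input, and 27.3, 30.2 and 29.5 CPM in YTHDF1 RIP of YTHDF2-ADAR cells, against 14.9, 16.4 and 14.2 CPM in input. The lactate carrier relative SLC16A4 had the highest YTHDF1 fold changes in the other lines, 2.88 ± 0.31 for the YTHDF2-ADAR line and 2.05 ± 0.30 for the YTHDF3-ADAR line, with −0.63 and no call in YTHDF1-ADAR cells. In YTHDF2-ADAR cells it had 39.5, 30.2 and 28.0 CPM in YTHDF1 RIP, against 4.16, 3.96 and 5.12 CPM in input.

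SLC22A23, an orphan of the organic ion carrier family, was higher with all 3 antibodies in all 3 lines. With YTHDF1 it had 171, 172 and 107 CPM in YTHDF1-ADAR cells, against 62.0, 46.7 and 48.4 CPM in input, a log2 fold change of 1.52. The other 8 fold changes were between 0.48 and 0.76. Some of these calls were lost when a library was left out: with YTHDF1 in YTHDF2-ADAR cells without any input or YTHDF1 RIP replicate 1 or 3 and in YTHDF3-ADAR cells without input replicate 1 or 3 or YTHDF1 RIP replicate 2, and with YTHDF2 without YTHDF1-ADAR input replicate 2 or YTHDF2-ADAR input replicate 3. SLC25A5 with YTHDF1 was lower in every line (−1.61, −3.13 and −3.00), as were SLC50A1 (−1.73, −1.93 and −2.16) and SLC9B1 (−2.44, −2.53 and −2.79).

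**Figure D4:**
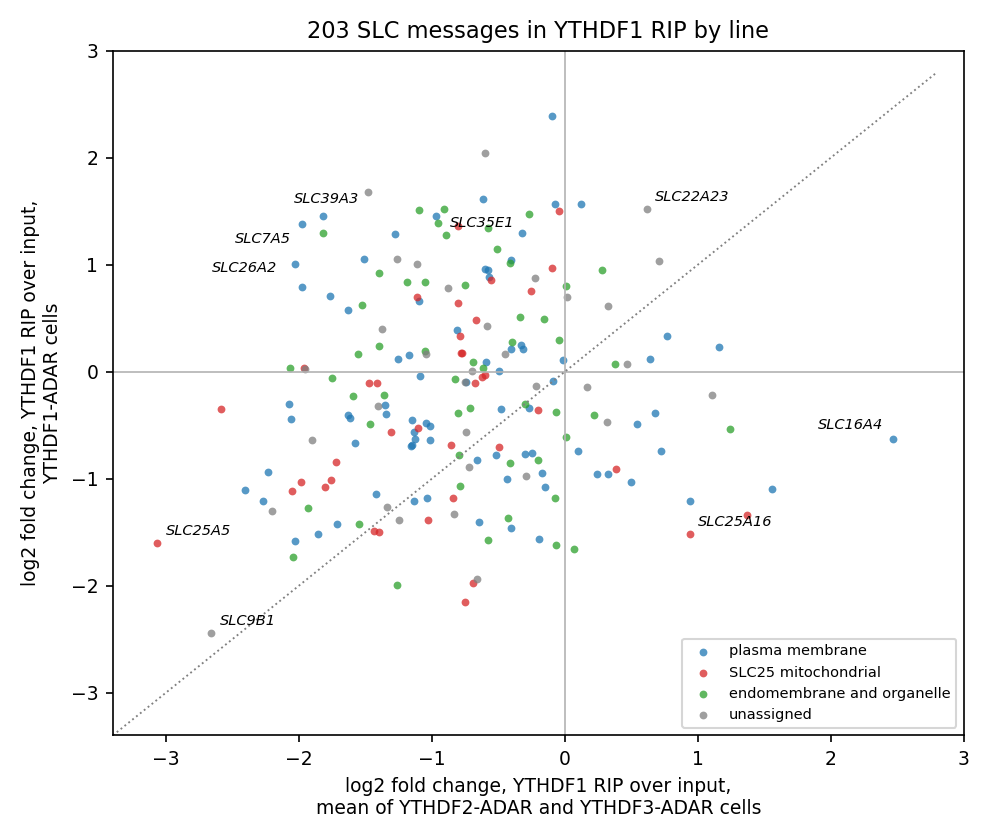
Each point is 1 of the 203 members, by its log2 fold change of YTHDF1 RIP over input in YTHDF1-ADAR cells (vertical axis) and its mean over YTHDF2-ADAR and YTHDF3-ADAR cells (horizontal axis), coloured by class; the dotted line marks equality. Most points lie above the line, with SLC7A5, SLC39A3 and SLC26A2 far above it and SLC25A16 and SLC16A4 below it.

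For YTHDF2 and YTHDF3 no member differed between lines by the same test. Of all genes tested 0.00314% were higher and 0.00628% lower in YTHDF1-ADAR cells with YTHDF3, and 0.00314% were lower with YTHDF2. Of the members 18 with YTHDF2 and 12 with YTHDF3 had an unadjusted p under 0.05 by edgeR, and DESeq2 called 0 with 6 and 3 under 0.05 unadjusted. A test of any difference among the lines called 0 members for either, with 8 and 5 under 0.05 unadjusted.

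Within YTHDF1-ADAR cells the YTHDF1 RIP libraries were compared with those of the other antibodies. Against YTHDF3 RIP, 69 members were higher in YTHDF1 RIP and 74 lower (22.4% and 18.7% of all genes). Of 80 plasma membrane members 20 were higher and 41 lower, and of 38 SLC25 members 14 and 9. Shares of the peers are not given for this comparison, so these class counts are no result about the classes. Against YTHDF2 RIP, 58 were higher and 67 lower (20.3% and 18.8% of all genes). SLC18B1 stood lowest against YTHDF2 RIP (−2.96 ± 0.20), ahead of SLC25A14 (−2.04 ± 0.21) and SLC35F2 (−1.94 ± 0.20). SLC10A3 (1.87 ± 0.22) and SLC35G2 (1.70 ± 0.14) were among the highest. Against YTHDF3 RIP the highest included SLC66A2 (1.95 ± 0.20) and the glucose carrier relative SLC2A6 (1.92 ± 0.23), and the lowest included SLC10A7 (−1.91 ± 0.22) and SLC4A7 (−1.79 ± 0.20). The sodium-proton exchanger SLC9A3 led both lists (2.18 and 2.34), but shares 56.8% of its exon bases with another gene and is uncertain.

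Input levels differed less. YTHDF1-ADAR against YTHDF2-ADAR input gave 14 members higher and 19 lower (13.3% and 4.3% of all genes), YTHDF1-ADAR against YTHDF3-ADAR 10 and 13 (11.3% and 5.1%), and YTHDF2-ADAR against YTHDF3-ADAR 6 and 5 (1.27% and 2.15%). The arginine carrier SLC7A3 had 4.02, 5.77 and 8.87 CPM in YTHDF1-ADAR input, against 23.9, 17.8 and 17.3 CPM in YTHDF2-ADAR input, a difference of −1.66 ± 0.32. The cystine carrier SLC7A11 had 36.1, 51.9 and 57.2 CPM in YTHDF1-ADAR input, against 79.0, 96.8 and 123 CPM in YTHDF2-ADAR input (−1.04 ± 0.25), and was higher in YTHDF2-ADAR than YTHDF3-ADAR input (1.08 ± 0.25, lost without YTHDF2-ADAR input replicate 3 or YTHDF3-ADAR input replicate 1 or 2). SLC16A4 (1.38 ± 0.30) and the bicarbonate carrier relative SLC4A11 (1.04 ± 0.16) were higher in YTHDF1-ADAR than YTHDF2-ADAR input. Against YTHDF3-ADAR input the YTHDF1-ADAR line was higher for SLC12A7 (0.92), SLC24A4 (0.89) and SLC35E3 (0.86), and lower for the glutamate carrier SLC1A1 (−0.90), SLC7A8 (−0.88) and SLC25A20 (−0.84). These counts rest on single libraries: without YTHDF1-ADAR input replicate 1 the first comparison gave 1 higher and 5 lower and the calls of SLC16A4, SLC7A11 and SLC2A12 were lost, and without replicate 3 it gave 5 higher and 48 lower. Its higher count was 2 to 3 without any YTHDF2-ADAR input, and that of YTHDF1-ADAR against YTHDF3-ADAR was 5 to 6 without YTHDF1-ADAR input replicate 3 or any YTHDF3-ADAR input. The lower count of YTHDF1-ADAR against YTHDF3-ADAR was 6 without YTHDF1-ADAR input replicate 1 and 37 without replicate 3, and the 5 lower members of the last comparison became 1 to 2 without any 1 of its inputs.

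Editing gives a readout that the immunoprecipitation counts do not use. The authors' deposited tables list, for each gene with edited sites, the number of sites and a score for each arm, with replicates pooled and depth unknown, so levels carry no error here. In the authors' deposited table of YTHDF1-ADAR cells 138 of 203 members were listed (68.0%, compared with 66.3% of the 11133 peers with a symbol of their own) with 2303 sites in all, a median of 7 and at most 117 a gene. In YTHDF2-ADAR cells the authors' deposited table listed 36 members with 69 sites (17.7%, compared with 19.7% of peers). In YTHDF3-ADAR cells it listed 46 members with 131 sites (22.7%, compared with 24.3% of peers). Of the members, 21 were listed in all 3 lines and 58 in none.

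The authors' deposited table of YTHDF1-ADAR cells listed 65.0% of plasma membrane members and 71.1% of SLC25 members. Among those listed, plasma membrane members had more sites each, with a median of 9.5, against 3 for SLC25 members and 7 for peers. Exon length also differed (medians of 6.38 kb and 4.63 kb over all members of the 2 classes), and its part in this was not tested. SLC35E2B had 117 sites in that deposited table, SLC7A5 had 97, SLC22A23 had 96, SLC7A1 had 88 and SLC45A4 had 84. Among members with at least 5 sites the highest input levels were those of the monoamine carrier SLC29A4 (9.39%), SLC24A1 (7.48%), SLC12A9 (6.94%), SLC2A8 (6.78%) and SLC2A6 (6.75%).

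The median editing level of the members was 3.51% in YTHDF1 RIP, 3.52% in YTHDF2 RIP and 3.35% in YTHDF3 RIP, against 2.53% in input, from the authors' deposited table of YTHDF1-ADAR cells. The authors' deposited table of YTHDF2-ADAR cells gave 0%, 0.96% and 1.4% in the same order, against 1.22% in input. That of YTHDF3-ADAR cells gave 0.717%, 2.14% and 2.46%, against 1.33% in input. Levels thus did not rise in every RIP of these 2 lines, where listed members had a median of 1 and 2 sites. In YTHDF1-ADAR cells, among members edited in both arms, 108 of 130 had a higher level in YTHDF1 RIP than in input (83.1%, with 85.9% of peers), 108 of 132 in YTHDF2 RIP and 101 of 135 in YTHDF3 RIP. With YTHDF3 the share was 43 of 52 for plasma membrane members (82.7%) and 14 of 27 for SLC25 members (51.9%). With YTHDF1 it was 44 of 50 (88.0%) and 18 of 25 (72.0%). The plasma membrane shares were near those of the peers and the SLC25 shares below them. The SLC25 members have fewer sites each, and how far this sets the shares was not tested. The authors' adjusted p was under 0.05 for 11 members in YTHDF1 RIP (8.46%, with 8.79% of all listed genes), 2 in YTHDF2 RIP (1.52%, with 1.76% of all listed genes) and 2 in YTHDF3 RIP (1.48%, with 1.2%), all higher than input. Each share is near that of all listed genes.

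Those 11 were SLC22A23, SLC25A5, SLC25A36, SLC25A37, SLC35G2, SLC37A4, SLC38A1, SLC39A3, SLC4A7, SLC5A3 and SLC7A6. The mitochondrial iron importer SLC25A37 had 15 sites edited at 4.28% in YTHDF1 RIP, against 2.29% in input, with an adjusted p of 0.000302 in the authors' deposited table. SLC39A3 had 51 sites at 3.39%, against 1.81% in input, SLC5A3 70 sites at 3.13%, against 1.72%, and SLC7A6 76 sites at 6.65%, against 4.09%, in the same authors' deposited table. SLC25A5, lower in YTHDF1 RIP by counts, had its 1 listed site edited at 4.29% there, against 1.57% in input (adjusted p of 0.000156 in the authors' deposited table). SLC35G2 stood apart in level, with 4 sites at 50.9% in YTHDF1 RIP, against 32.9% in input. SLC7A5, with 97 sites, had 5.66% in YTHDF1 RIP, against 5.22% in input, and an adjusted p of 0.837 in the authors' deposited table. In YTHDF3-ADAR cells SLC38A10 had 2 sites at 6.97% in YTHDF3 RIP, against 1.05% in input, with an adjusted p of 0.000146 in the authors' deposited table. Of the 36 members compared in that arm it was the only one with the authors' adjusted p under 0.05. That is 2.78%, near the 2.28% of peers and 2.31% of all listed genes. Among the members compared, none passed in the other RIP arms of YTHDF3-ADAR cells or in YTHDF2-ADAR cells.

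**Figure D5:**
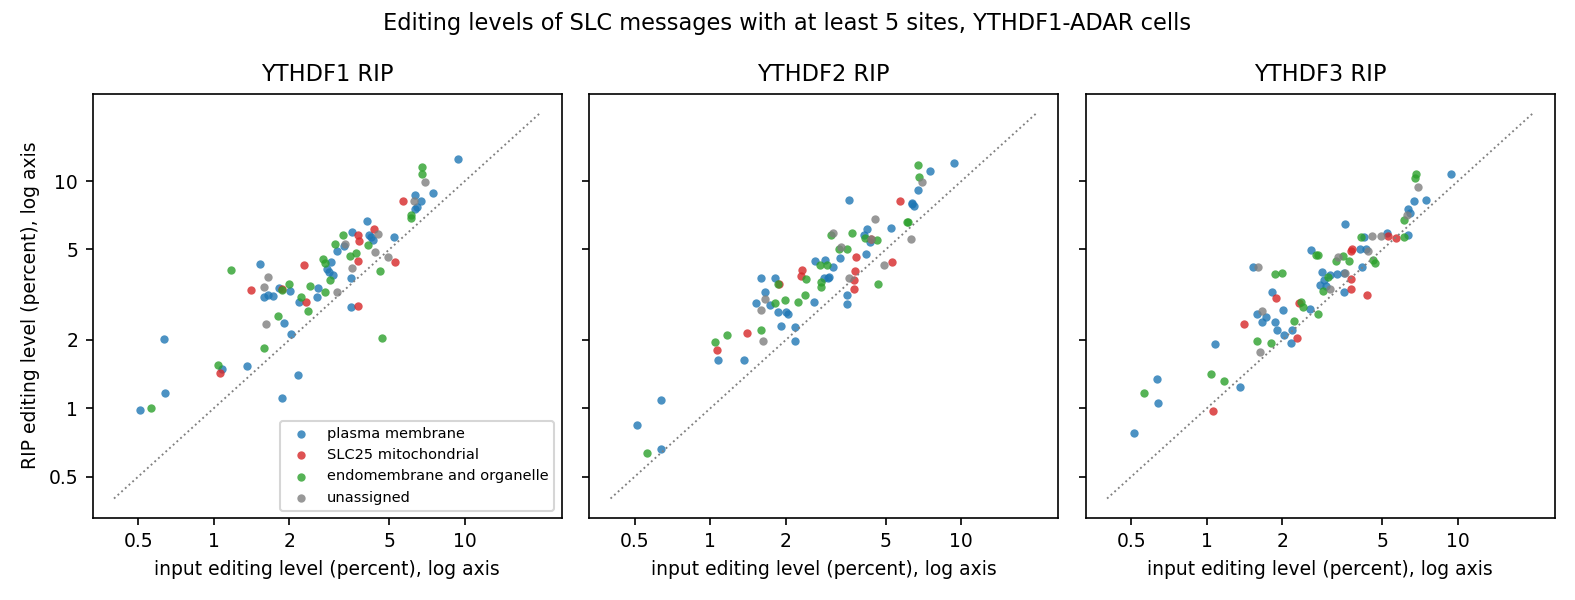
Editing level in each RIP (vertical axis, percent, log axis) against input (horizontal axis, percent, log axis) for the 86 members with at least 5 sites in YTHDF1-ADAR cells, coloured by class, with a dotted line at equality. In YTHDF1 RIP 78 of the 86 lie above the line (90.7%, with 92.9% of peers with at least 5 sites). Values are computed from the authors' deposited table.

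The authors' deposited table of RIP against input, which gives 1 fold change for each antibody, called 11 members higher and 123 lower with YTHDF1 at adjusted p under 0.05 (5.42% and 60.6%), where 20.8% and 16.6% of all its genes and 8.74% and 55% of peers were called. With YTHDF2, 43 members were higher and 20 lower in the authors' deposited table (21.2% and 9.85%), where 6.46% and 6.43% of all genes and 24.2% and 19.1% of peers were called. With YTHDF3 the authors' deposited table gave 43 and 31 (21.2% and 15.3%), where 8.32% and 9.79% of all genes and 27.6% and 27.4% of peers were called.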

How the data were processed

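Gene counts, fold changes and editing tables of RNA immunoprecipitation (RIP) and input libraries were analysed. The count table was deposited by the authors with 1 column a library: reads were aligned with STAR 2.7.7 to GRCh38 per the submitters' processing notes, and counted with featureCounts 2.0.1 over Ensembl release 102 exons per the file headers. Per the file headers, multi-mapping reads and reads over several genes were counted at each, duplicates were ignored and strand was not used, so 20 members with over 20% of exon bases shared with another gene, and copies among pseudogenes, are uncertain. The authors also deposited a table made with DESeq2, with a signal (mean of size-factor scaled counts), log2 fold changes and adjusted p-values, and 3 editing tables with the number of sites, a score per arm, natural log odds ratios and adjusted p-values. Editing level is 100 times the deposited score over the number of sites. The test and filters behind these editing tables are not given in the sources used here.

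Genes passing edgeR's filter (31849 of 60675) were fitted over 36 libraries with edgeR 4.0.16 (R 4.3.3, limma 3.58.1), TMM scaling and 1 mean per group, and tested by quasi-likelihood with Benjamini-Hochberg adjustment; log2 CPM used a prior count of 1. Scripts were tested on simulated data. DESeq2 1.42.0, other scalings, no filter, a floor of 10 CPM, surely placed members only, no use of the 6 libraries that stood apart, a replicate block and leaving out each library were alternatives. Same-number YTHDF2 and YTHDF3 RIP libraries of YTHDF1-ADAR cells deviated together (correlations of 0.196, 0.121 and 0.391), which pairs them by the data and not by the labels; a replicate block did not move the counts of that comparison by over 1.5 times. Depth was 12.5 M to 37.5 M counts a library, and 0 count columns were left unused. Members, locations (assigned by hand from textbook knowledge), lists and tests were chosen with earlier results of these data known. Named genes were 24 well-known carriers, the 5 highest and 5 lowest mean fold changes of each antibody, the 5 smallest p of the line difference, the 3 highest and lowest calls of each other comparison, and in editing the 5 with most sites and the 5 with highest input level; others are named to complete a count, and so were chosen after their values were seen. Some genes that this rule names are not reported here.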

Additional observations from a re-analysis of the deposited data

Results flagged for a closer look

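YTHDF1 RIP gave results that differed between lines by a test of the difference itself, the enrichment over input in YTHDF1-ADAR cells minus the mean of the YTHDF2-ADAR and YTHDF3-ADAR lines (edgeR quasi-likelihood). It called 120 SLC messages higher and 39 lower, where 26.9% of all genes tested were higher and 42.4% lower. As given above, the share of members higher lay above that of the peers, and the share lower was near it. A test of any difference among the 3 lines called 151 members, where 63.7% of all genes were called. The 5 messages of smallest p were SLC26A2 with a difference of 3.04 on the log2 scale, SLC39A3 with 3.28, SLC35E1 with 2.35, SLC7A5 with 3.36 and SLC25A16 with −2.45. In all 5 the YTHDF1 RIP libraries of YTHDF1-ADAR cells lay on the other side of input from those of the other lines. The 6 YTHDF1 RIP libraries of those lines had 12.5 M to 16.3 M counts and 54.1 to 74.2% on protein-coding genes, and the part of this in the difference was not tested. Groups held 3 libraries each, so no library was tested against the others of its group.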

How the results depend on the processing

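Alternatives for counts over all 3 lines were chosen after seeing the data. Under total-count scaling the members called with YTHDF1 were 36 higher and 88 lower in YTHDF2-ADAR cells and 32 higher in YTHDF3-ADAR cells. With YTHDF2 they were 55 and 18 in YTHDF1-ADAR cells, 73 higher in YTHDF2-ADAR cells, and 70 and 7 in YTHDF3-ADAR cells. With YTHDF3 they were 59 and 22, 84 and 18, and 76 higher in the same 3 lines. Inputs gave 24 and 12 for YTHDF1-ADAR against YTHDF2-ADAR and 9 lower for YTHDF2-ADAR against YTHDF3-ADAR. In all 3 lines, 32 members were lower with YTHDF1, 21 plasma membrane members higher and 3 SLC25 members lower with YTHDF2, and 30 plasma membrane members higher with YTHDF3. SLC37A3 and SLC12A7 turned to 0.22 and 0.16 with YTHDF1 in YTHDF2-ADAR cells, against −0.31 and −0.37 in the reported fit. Relative log expression and DESeq2 each gave 28 higher with YTHDF1 in YTHDF3-ADAR cells. DESeq2 also gave 47 higher with YTHDF3 in YTHDF1-ADAR cells, 29 and 22 lower in YTHDF1-ADAR input against YTHDF2-ADAR and YTHDF3-ADAR, and 12 higher in YTHDF2-ADAR input against YTHDF3-ADAR. A floor of 10 CPM gave 12 and 9 higher with YTHDF1 in the YTHDF2-ADAR and YTHDF3-ADAR lines, 9 higher in the first input comparison and 3 lower in the last. It made the plasma membrane minus SLC25 median 0.25, −0.0607 and 0.0351 with YTHDF1 in the 3 lines, the second against 0.062, and 0.68 with YTHDF3 in YTHDF2-ADAR cells; the smaller set of members is its own construction. With surely placed members only, that median was 0.19 with YTHDF1 and 0.18 with YTHDF2 in YTHDF3-ADAR cells and 0.66 with YTHDF3 in YTHDF2-ADAR cells. With no filter, 23 members were lower with YTHDF2 in YTHDF1-ADAR cells, 7 higher in the first input comparison, and 1 differed between lines with YTHDF3. Without the 6 YTHDF1 RIP libraries, YTHDF3 in YTHDF1-ADAR cells gave 50 higher and 29 lower, and inputs 4 and 33, 6 and 23, and 3 lower in the order YTHDF1-ADAR against YTHDF2-ADAR, against YTHDF3-ADAR, and YTHDF2-ADAR against YTHDF3-ADAR. The cause of these shifts was not tested.

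Leaving out single libraries gave 8 to 19 and 10 to 16 members higher with YTHDF1 in the YTHDF2-ADAR and YTHDF3-ADAR lines. With YTHDF2 it gave 14 to 44 lower in YTHDF1-ADAR cells, 23 to 41 higher and 10 to 15 lower in YTHDF2-ADAR cells, and 18 to 37 higher and 11 to 16 lower in YTHDF3-ADAR cells. With YTHDF3 it gave 22 to 55 higher and 21 to 43 lower, then 26 to 35 and 24 to 32 higher. Inputs gave 1 to 13 higher and 5 to 48 lower, 5 to 12 and 6 to 37, and 1 to 2 lower. The line difference of YTHDF1 gave 23 to 41 lower. In all lines it gave 5 to 15 plasma membrane higher and 3 to 9 SLC25 lower with YTHDF2, and 10 to 25 plasma membrane higher with YTHDF3. The plasma membrane minus SLC25 median was 0.0944 to 0.175 with YTHDF1 and 0.23 to 0.34 with YTHDF2 in YTHDF3-ADAR cells, and 0.51 to 0.67 with YTHDF3 in YTHDF2-ADAR cells. For YTHDF1-ADAR cells it ran from −0.0275 (without YTHDF1 RIP replicate 2) to 0.0916 with YTHDF1, against 0.0398, and 0.21 to 0.41 with YTHDF2 (highest without YTHDF2 RIP replicate 1), against 0.24, and in YTHDF2-ADAR cells 0.14 to 0.23 with YTHDF2 (highest without input replicate 3), against 0.14. SLC35G2 with YTHDF1 in YTHDF2-ADAR cells gave −0.0063 (without YTHDF1 RIP replicate 3) to 0.4051, against 0.39. Over all alternatives, values of named genes kept direction and call in 7217 cases, lost the call in 399, gained it in 195 and changed sign in 3. Same-number libraries correlated at −0.371 to 0.391, over 0.1 in 9 of 63 pairs, and outside the pairing of YTHDF2 and YTHDF3 RIP in YTHDF1-ADAR cells no comparison had all of its pairs over 0.1. With a replicate block YTHDF1 in YTHDF1-ADAR cells gave 57 members higher and 84 lower, YTHDF2 against YTHDF3 RIP 72 and 48, and 602 of 608 values of named genes kept their call, the 6 others all in comparisons with input. Input levels near the floor and editing tables without depth limit what small differences can be seen.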

Other observations

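Other transporter and mitochondrial gene lists, also chosen with earlier results known, were read beside the SLC messages, with no test. With YTHDF3, 11.5%, 15.2% and 13.5% of all genes tested were higher and 20.1%, 16.9% and 16.1% lower in the YTHDF1-ADAR, YTHDF2-ADAR and YTHDF3-ADAR lines, and of multi-exon protein-coding genes at the same floor (peers) 23.4%, 26.1% and 26.3% were higher and 31.5%, 28.8% and 27.1% lower. The P-type ATPase list, of ion and lipid pumps, also held the beta subunits ATP1B1, ATP1B2 and ATP1B3. Of its 33 genes 15, 17 and 15 were higher and 3, 2 and 3 lower (45.5%, 51.5% and 45.5%, and 9.09%, 6.06% and 9.09%). The list of ABC genes, taken by symbol, also held ABCE1, ABCF1, ABCF2 and ABCF3, which are no membrane transporters. Of its 38 genes 6, 11 and 8 were higher and 5, 3 and 3 lower (15.8%, 28.9% and 21.1%, and 13.2%, 7.89% and 7.89%), the higher shares near or below those of the peers. Of 21 subunits of the vacuolar proton pump 1, 3 and 1 were higher and 11 lower in each line (52.4%). Of 25 TIMM and TOMM subunits of mitochondrial protein import 1, 0 and 1 were higher and 19 lower in each line (76%), with medians of −1.10, −0.97 and −1.01 on the log2 scale, and of 7 pyruvate and sideroflexin carriers (MPC and SFXN) 0 were higher and 3 lower in each line. With YTHDF2, 12, 11 and 10 of the TIMM and TOMM subunits were lower, and 10, 13 and 10 genes of the P-type ATPase list were higher, where 27.2%, 16.6% and 16.5% of peers were lower and 18.5%, 21.3% and 18.7% higher.

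BSG and EMB are the chaperones that bring the lactate carriers SLC16A1 and its relatives to the surface. BSG gave −2.02, −1.56 and −1.62 with YTHDF3, all called lower, and EMB 0.16, 0.25 and 0.04, none called. SLC16A1 gave 0.14, 0.17 and 0.25 with YTHDF3, none called. With YTHDF1 BSG was lower in all lines (−1.45, −2.77 and −2.59), while SLC16A1 was 0.70, −1.76 and −1.76.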
